A study of Homo sapiens with 22 samples.

Results

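Gene expression on culture day 20 was compared with that on day 18 across all genes in haematopoietic progenitor cells that had received no doxycycline, using 2 libraries of each day. The 4 libraries were taken by their labels and columns, not by any measured value, from the 22 libraries of the series. H1, a long-established line of human embryonic stem cells, was the source of all cells, and every library carries the name doxee17 in its title. The series holds 12 libraries without doxycycline (UT, days 10 to 20) and 10 with doxycycline (DOX, days 12 to 20), which switches on added MYC, a transcription factor of growth genes. The groups used here are UT day 18 and UT day 20, with DOX day 18 and DOX day 20 beside them, and each holds 2 libraries of polyA RNA from 200000 cells. Both UT groups were controls in which ectopic MYC was not induced. The day on which doxycycline was added and whether the line is 1 clone are not given in the sources used here, and cells given doxycycline without ectopic MYC were not analysed here. Nothing in the labels says that the 2 libraries of a group came from separate cultures, so p-values measure only how far these libraries differ, and that spread may be technical. All libraries carry the same batch number.

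Granulocytes are made in stages. Early precursors fill primary granules with enzymes such as myeloperoxidase, later stages make the secondary and tertiary granules, and the last stage stops dividing and sets out the receptors with which a neutrophil finds inflamed tissue. Cultures of progenitors from pluripotent stem cells can also hold megakaryocytes, which shed platelets, red cell precursors, and endothelial cells. Blood cells arise from a haemogenic endothelium, a specialised endothelium of the embryo. NF-kB is a family of transcription factors that turns on chemokine and survival genes after inflammatory signals and that induces its own inhibitors, while the immediate early genes answer growth factor signals within minutes and feed back on them.

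The 4 UT libraries held 24730517 to 36137590 estimated counts, within the range of 24730517 to 53508590 of the whole series, and 20115 of 60240 genes passed the filter on low counts. Levels are given as CPM, the counts per 1000000 of a library's scaled size, and a gene was called when the adjusted p of edgeR's quasi-likelihood test was under 0.05. Day 20 differed from day 18 in 925 genes (4.60% of those tested), of which 324 (1.61%) were higher and 601 (2.99%) lower on day 20. The median log2 change of all genes tested was 0. Libraries of the same day were less alike than earlier in culture, with a correlation of log2 CPM across genes of 0.931 on UT day 18 and 0.929 on UT day 20 against 0.990 on UT day 10.

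Mitochondrial transcripts took up most of the counts and more of them on day 20. They made up 62.8% and 56.6% of the counts in the 2 libraries of day 18 and 72.5% and 72.9% in those of day 20. Both libraries of day 20 lay above both of day 18. The means were 59.7% ± 4.41 and 72.7% ± 0.332 (SD, n = 2 each), a difference of 12.98 percentage points with p = 0.333 in a two-sided exact permutation test, the smallest value that 2 libraries against 2 allow. The share was 8.92% on UT day 10 and 54.7% on UT day 16, and it went from 36.7% on DOX day 18 to 57.0% on DOX day 20. Counts from all other genes, in units of 1000000 a library, were 9.19 and 15.1 on day 18 and 7.59 and 9.78 on day 20. The part of this shift in the results that follow was not tested beyond 2 alternatives: with mitochondrial genes removed the number of genes called was 880, and with library sizes in place of the scaling the median log2 change of all genes moved to -0.64 and 8484 of 8685 calls were lower.

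Among the 13 mitochondrially encoded mRNAs, which code for subunits of the respiratory chain and of ATP synthase, 9 rose and none fell by the test of single genes, and all 13 had both day 20 libraries above both day 18 libraries (15.6% of all genes tested did). Their median log2 change was 0.98. MT-CO1, a subunit of cytochrome c oxidase, rose by 0.98 ± 0.25 on the log2 scale (SE; edgeR adjusted p = 0.034). These calls were not firm: without UT day 18 replicate 1, UT day 18 replicate 2, UT day 20 replicate 1 or UT day 20 replicate 2, the number of the 13 called was 3, 0, 4 and 0, and with library sizes alone it was 0. MT-CO1 lost its call without any 1 of the 4 libraries, with log2 changes of 0.83 to 1.13.

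Late days of such a culture can be taken for terminal granulocyte maturation, so the genes of that process were read next. None of the 14 primary granule genes that were tested rose or fell, 1 of 20 secondary and tertiary granule genes rose, and 3 of 26 mature neutrophil surface genes rose, while 1 of 31 mitosis genes rose and none fell (the share called higher over all genes was 1.61%). Median log2 changes were -0.02 for primary granule, 0.56 for secondary and tertiary granule (0.52 with members at 0 counts on 1 day set to their bounds), 0.73 for mature neutrophil surface and 0.18 for mitosis genes, beside 0 for all genes. With library sizes alone these medians were -0.66, -0.07, 0.09 and -0.47, to be read against the shift of -0.64. Leaving out 1 library gave medians of -0.10 to 0.08 for primary granule, 0.21 (without UT day 20 replicate 1) to 0.76 for secondary and tertiary granule, with 0.30 without UT day 18 replicate 2, 0.46 (without UT day 20 replicate 1) to 0.86 for surface, and 0.05 (without UT day 20 replicate 2) to 0.24 for mitosis genes. From UT day 10 to UT day 16, 13 of the 14 primary granule genes had already been called higher (26.7% of all genes were). From day 18 to day 20 few genes of these lists were called, and no mitosis gene was called lower. Whether the interval is one of terminal maturation was not tested, and it is named here by its days. Among the 14 primary granule genes, where the count by edgeR was 0, 2 had an unadjusted p under 0.05, limma-voom called 0 and DESeq2 0.

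The surface genes that rose included 2 chemokine receptors. CXCR2, the receptor through which neutrophils follow CXCL8, was measured at 9.72 and 11.3 CPM on day 18 and at 24.0 and 25.1 CPM on day 20. Both day 20 libraries lay above both of day 18 and close to each other. On the log2 scale the change was 1.23 ± 0.30 (SE; edgeR adjusted p = 0.025). The call was lost without UT day 18 replicate 1 (1.12), UT day 20 replicate 1 (1.25) and UT day 20 replicate 2 (1.19). CXCR4, which holds granulocytes in the marrow, went from 19.9 and 20.6 CPM to 36.8 and 38.0 CPM. The days did not overlap, and the log2 change of 0.89 ± 0.21 (edgeR adjusted p = 0.026) lost its call without any 1 of the 4 libraries (0.86 to 0.91). With library sizes alone neither was called.

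Of the 26 surface genes tested, 17 had both day 20 libraries above both of day 18 and none had both below, against 15.6% and 19.0% of all genes tested. Their summed level was 678 and 577 CPM on day 18 and 1004 and 771 CPM on day 20. CSF3R, the receptor for the growth factor that drives neutrophil production, was not called, with 120 and 103 CPM on day 18 and 121 and 103 CPM on day 20. FCGR3B, a defining surface protein of the mature neutrophil, stood at 2.64 and 2.40 CPM on day 18 and at 3.76 and 4.88 CPM on day 20 and was not called (edgeR adjusted p = 0.49). The number of surface genes called was 3, and without UT day 18 replicate 1, UT day 18 replicate 2, UT day 20 replicate 1 or UT day 20 replicate 2 it was 0, 1, 0 and 2.

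HP, haptoglobin, which neutrophil precursors store in their granules, was measured at 1.79 and 8.21 CPM on day 18 and at 15.1 and 17.4 CPM on day 20. Replicate 1 of day 18 was the lowest, and the days did not overlap. The change on the log2 scale was 1.65 ± 0.39 (edgeR adjusted p = 0.023), and the call was lost without UT day 18 replicate 1 (0.98) and UT day 20 replicate 2 (1.54). CYBB, the membrane subunit of the NADPH oxidase that makes superoxide (chrX:37780011-37813461, plus strand), stood at 387 and 347 CPM and then at 690 and 583 CPM. Both day 20 libraries were well above both of day 18. It rose by 0.80 ± 0.13 on the log2 scale (edgeR adjusted p = 0.0020), kept the call without any 1 of the 4 libraries, and was 1 of 8 oxidase genes called. With library sizes alone its log2 change was 0.16 and the call was lost, as was that of HP (0.97). MPO, myeloperoxidase, was at 1640 and 1619 CPM on day 18 and at 2014 and 2051 CPM on day 20, a log2 change of 0.32 ± 0.16 that did not pass the test (edgeR adjusted p = 0.25).

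**Figure D1:**
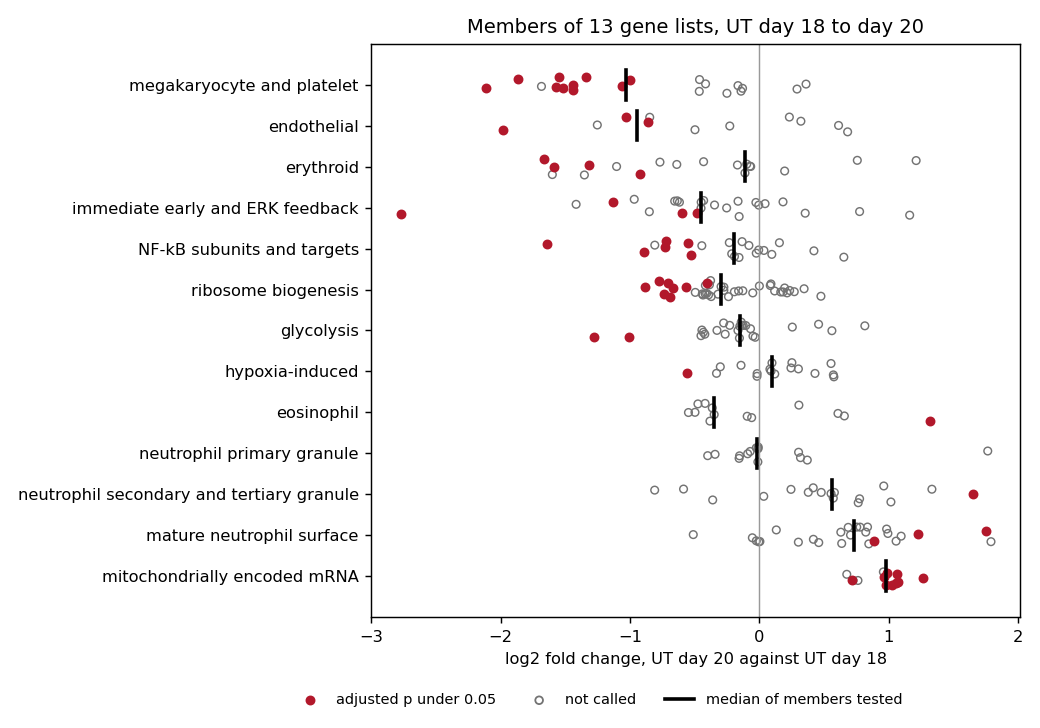
Members of 13 gene lists by their log2 fold change, UT day 20 against UT day 18 (x axis), 1 row a list. Filled points passed the adjusted p of 0.05, open points did not, and black bars are medians of the members tested; 257 of 277 members are drawn, those with under 10 counts on either day being left out. Filled points sit left of 0 in the platelet, endothelial, erythroid, immediate early, NF-kB, ribosome biogenesis, glycolysis and hypoxia rows. They sit right of 0 in the eosinophil, secondary and tertiary granule, mature neutrophil and mitochondrial rows.

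Eosinophil genes were abundant on both days and did not rise as a list. Of 13 tested, 1 rose and none fell (1.61% of all genes were called higher), and the median log2 change was -0.35. Both day 20 libraries lay below both of day 18 in 7 genes and above in 3, against 19.0% and 15.6% of all genes. The median was -0.05 without UT day 18 replicate 1, -0.17 without UT day 20 replicate 1 and -0.14 without UT day 20 replicate 2. PRG2, the major basic protein of eosinophil granules, was measured at 25193 and 19946 CPM on day 18 and at 17606 and 14368 CPM on day 20. Both libraries of day 20 lay below both of day 18, but the change of -0.50 ± 0.19 on the log2 scale did not pass the test (edgeR adjusted p = 0.14). EPX, eosinophil peroxidase, had a log2 change of -0.35 ± 0.22 (edgeR adjusted p = 0.39). The member that rose was SMPD3, a neutral sphingomyelinase, at 6.92 and 7.40 CPM on day 18 and 16.3 and 19.4 CPM on day 20. With library sizes alone SMPD3 had a log2 change of 0.66 and was not called. The days were well apart, with a log2 change of 1.32 ± 0.29 (edgeR adjusted p = 0.015), and the call was lost without UT day 18 replicate 1 (1.27) and UT day 20 replicate 2 (1.18).

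Platelet and megakaryocyte genes were lower on day 20. Of 20 tested, 10 fell and none rose (2.99% of all genes were called lower). The median log2 change was -1.03, and 14 had both day 20 libraries below both of day 18 (19.0% of all genes did). The 10 were GP1BA, GP9, LTBP1, PPBP, SELP, PF4, CLEC1B, ITGB3, GP1BB and TUBB1. In a bulk library, fewer megakaryocytes and less of these RNAs in each cannot be told apart. The summed level of the 20 genes was 947 and 1020 CPM on day 18 and 782 CPM in both libraries of day 20.

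PPBP, the platelet basic protein that platelets release as a chemokine, showed the fall at a high level. It was measured at 53.7 and 68.3 CPM on day 18 and at 18.7 and 22.9 CPM on day 20. The libraries of day 20 were close together and far below those of day 18. The log2 change was -1.55 ± 0.22 (SE; edgeR adjusted p = 0.00094), a level 2.93-fold lower. SELP, P-selectin of platelet granules, went from 28.8 and 24.95 CPM to 6.63 and 11.9 CPM (log2 change -1.52 ± 0.23, edgeR adjusted p = 0.0015). LTBP1, which stores the growth factor TGF-beta in platelets and matrix, went from 15.7 and 20.4 CPM to 4.35 and 7.70 CPM (log2 change -1.57 ± 0.23, edgeR adjusted p = 0.00096). Neither gene's days overlapped.

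Subunits of the receptor for von Willebrand factor, with which platelets stick to damaged vessels, also fell. GP1BB fell less far than GP9 and GP1BA, with a log2 change of -1.06 (-1.24 to -0.91 with 1 library left out), and was not called with limma-voom. GP9 was measured at 10.7 and 7.91 CPM on day 18 and at 2.37 and 2.65 CPM on day 20. Both libraries of day 20 sat low and together. Its log2 change was -1.87 ± 0.25 (edgeR adjusted p = 0.00059). GP1BA stood at 7.85 and 9.75 CPM and then at 0.791 and 3.16 CPM, with replicate 1 of day 20 the lowest library. Its log2 change was -2.12 ± 0.39 (edgeR adjusted p = 0.0064), and -3.49 without UT day 20 replicate 2. ITGB3, a subunit of the fibrinogen receptor, had a log2 change of -1.34 ± 0.30 (edgeR adjusted p = 0.017) and lost the call without UT day 18 replicate 2 (-0.97), UT day 20 replicate 1 (-1.23) and UT day 20 replicate 2 (-1.48). PPBP, GP9, GP1BA, SELP and LTBP1 kept the call without any 1 of the 4 libraries, and 10, 7, 7 and 10 of the list were called without UT day 18 replicate 1, UT day 18 replicate 2, UT day 20 replicate 1 and UT day 20 replicate 2. With limma-voom 2 of the 20 were called.

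The promoters of PPBP and GP9, which stand for a chemokine and a receptor subunit that fell together, are shown with any match to AGATAA in capitals, the letters read by the GATA factors of megakaryocytes, searched on both strands. The sequences are RefSeq's on GRCh38.p14, run 5′ to 3′ along the gene's strand, and hold the 250 bases before the start. PPBP lies on the minus strand at chr4:73988191-73988440 and holds a match that begins 217 bases before the start, and GP9 lies on the plus strand at chr3:129060529-129060778 and holds none.
PPBP: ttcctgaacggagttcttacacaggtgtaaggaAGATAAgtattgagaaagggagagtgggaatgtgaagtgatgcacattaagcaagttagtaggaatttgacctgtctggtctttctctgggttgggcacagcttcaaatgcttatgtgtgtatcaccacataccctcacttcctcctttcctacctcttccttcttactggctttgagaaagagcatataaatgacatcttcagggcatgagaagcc
GP9: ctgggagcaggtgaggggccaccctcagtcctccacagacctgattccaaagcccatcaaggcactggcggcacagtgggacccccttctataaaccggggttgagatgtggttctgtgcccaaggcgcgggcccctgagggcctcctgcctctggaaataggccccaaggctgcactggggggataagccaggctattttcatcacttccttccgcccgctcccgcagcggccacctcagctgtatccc
The letters stood in 3 of the 15 platelet genes with a promoter entry and in 2 of the 7 that were called, beside 9.37% of all 27305 promoters. A match is a description of letters, and the lack of one says nothing about the factor.

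**Figure D2:**
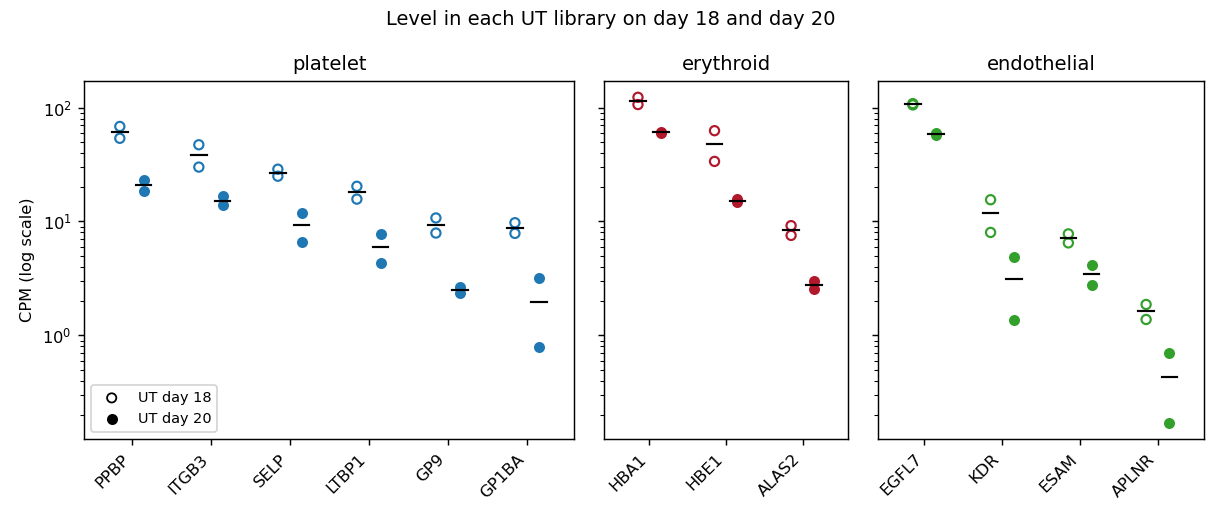
Level in each UT library (y axis, CPM on a log scale) of platelet, erythroid and endothelial genes, with open points for day 18, filled points for day 20 and bars for the mean of 2 libraries. In each of the 13 genes drawn the day 20 points lie below the day 18 points; PPBP goes from 53.7 and 68.3 CPM to 18.7 and 22.9 CPM.

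Red cell genes gave fewer calls. Of 25 tested, 4 fell and none rose (2.99% of all genes were called lower). With limma-voom 2 of the 25 were called lower, and HBE1 and ALAS2 lost the call. The median log2 change was -0.11 (-0.33 to -0.09 with 1 library left out, and -0.14 with members at 0 counts on 1 day set to their bounds). Both day 20 libraries lay below both of day 18 in 10 genes and above in 3, against 19.0% and 15.6% of all genes. HBE1, the embryonic beta-type globin, was measured at 33.7 and 62.7 CPM on day 18 and at 14.7 and 15.7 CPM on day 20. The libraries of day 20 were alike and below both of day 18, which differed from each other by more than the lower one differed from day 20. On the log2 scale the change was -1.67 ± 0.26 (edgeR adjusted p = 0.0017). ALAS2, the red cell enzyme that begins haem synthesis, went from 7.54 and 9.18 CPM to 2.57 and 2.99 CPM, with no overlap (log2 change -1.59 ± 0.27, edgeR adjusted p = 0.0031). HBA1, an alpha globin, had a log2 change of -0.92 ± 0.18 (edgeR adjusted p = 0.0086), and HBG2, a foetal globin, was the fourth, with its call lost without UT day 18 replicate 2 (-1.10) and UT day 20 replicate 1 (-0.75). HBA1 and HBG2 have near-identical copies and the gene model of HBE1 spans its neighbours in the globin cluster, so the split of reads among these genes is uncertain. HBB, the adult beta globin, had 0 counts on both days.

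Endothelial genes fell in part. Of 18 tested, 5 fell and none rose (2.99% of all genes were called lower). With limma-voom 1 of the 18 was called lower, and KDR, ESAM, APLNR and CLDN5 lost the call. The median log2 change was -0.94 (-0.51 without UT day 20 replicate 2, and -1.03 with members at 0 counts on 1 day set to their bounds). EGFL7, a secreted protein of endothelial cells and of some progenitors (chr9:136658856-136672678, plus strand), was measured at 106 and 108 CPM on day 18 and at 57.6 and 60.2 CPM on day 20. Replicates were close on both days and the days far apart. The change on the log2 scale was -0.86 ± 0.14 (edgeR adjusted p = 0.0020), kept without any 1 of the 4 libraries. KDR, the main receptor for VEGFA, went from 8.01 and 15.5 CPM to 4.85 and 1.37 CPM. The lower library of day 18 and the higher of day 20 came near each other. Its log2 change was -1.99 ± 0.39 (edgeR adjusted p = 0.0086), with the call lost without UT day 18 replicate 2 (-1.41) and UT day 20 replicate 2 (-1.31), and a value of -3.14 without UT day 20 replicate 1.

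Other endothelial genes that fell were at lower levels than EGFL7. ESAM, an adhesion protein of endothelial cells and platelets, had a log2 change of -1.03 ± 0.21 (edgeR adjusted p = 0.011) and lost the call without UT day 20 replicate 1 (-0.79). APLNR, the apelin receptor, had 51 counts on day 18 and 9 on day 20, a log2 change of -1.93 ± 0.48 (edgeR adjusted p = 0.030), and lost the call without UT day 18 replicate 1 (-1.73) and UT day 20 replicate 2 (-1.1999). CLDN5, a tight junction protein, had 28 counts on day 18 and 0 on day 20, which at a floor of 3 counts a library makes it at least 2.87-fold lower; the call was lost without UT day 18 replicate 2, UT day 20 replicate 1 and UT day 20 replicate 2. PECAM1, shared by endothelial cells, platelets and leukocytes, went the other way from these, at 62.3 and 52.96 CPM on day 18 and 76.3 and 67.6 CPM on day 20 (log2 change 0.32 ± 0.14, edgeR adjusted p = 0.21). ROBO4, an endothelial receptor, had 0 counts on both days. Of the list, 4, 3, 4 and 2 members were called without UT day 18 replicate 1, UT day 18 replicate 2, UT day 20 replicate 1 and UT day 20 replicate 2.

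Among stem and progenitor genes, 2 of 23 fell and none rose, beside 2.99% of all genes called lower. With limma-voom 1 of the 23 was called lower, and TAL1 lost the call. The median log2 change of the list was -0.23 (-0.38 without UT day 20 replicate 2). MEIS1, a homeobox factor of stem cells and megakaryocytes, was measured at 22.1 and 29.8 CPM on day 18 and at 12.9 and 12.1 CPM on day 20. Both day 20 libraries were below both of day 18, and the log2 change was -1.06 ± 0.15 (edgeR adjusted p = 0.00096), kept without any 1 of the 4 libraries. TAL1, a master factor of blood and red cell formation, had a log2 change of -0.74 ± 0.19 (edgeR adjusted p = 0.034), and lost its call without UT day 18 replicate 2 (-0.41) and UT day 20 replicate 1 (-0.59). CD34, the surface marker by which progenitors are defined, was at 9.33 and 11.6 CPM on day 18 and at 1.98 and 8.12 CPM on day 20, with replicate 1 of day 20 well below the rest, and was not called (log2 change -1.03, edgeR adjusted p = 0.11). Its log2 change was -0.38 without UT day 20 replicate 1 and -2.42, then called, without UT day 20 replicate 2, and it was called with DESeq2, without a filter and with library sizes alone. MYC itself was at 45.02 and 33.2 CPM on day 18 and at 34.6 and 28.7 CPM on day 20, which overlap (log2 change -0.30 ± 0.26, edgeR adjusted p = 0.54).

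Genes of iron traffic included 2 of 19 that fell, beside 2.99% of all genes. SLC40A1, ferroportin, through which cells export iron, went from 38.8 and 49.5 CPM to 14.6 and 23.3 CPM (log2 change -1.22 ± 0.19, edgeR adjusted p = 0.0020). TFRC, the transferrin receptor that brings iron in, was measured at 92.5 and 89.3 CPM and then at 57.4 and 61.7 CPM (log2 change -0.61 ± 0.12, edgeR adjusted p = 0.0086). In both genes the days did not overlap, and both kept the call without any 1 of the 4 libraries.

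Markers of other cell types the cultures could hold gave few calls, beside 1.61% of all genes higher and 2.99% lower. Of 28 monocyte and macrophage genes 1 fell, of 14 mast cell and basophil genes none moved, of 21 genes of MHC class II and dendritic cells none moved, of 16 lymphoid genes 1 rose, and of 18 fibroblast genes 1 fell. Median log2 changes were -0.19, -0.05, -0.14, 0.40 (0.43 with members at 0 counts on 1 day set to their bounds) and -1.22. The fibroblast list had 8 members with both day 20 libraries below both of day 18 and none above (19.0% and 15.6% of all genes). When no filter was applied, 8 members were called lower, as were 891 of all 36507 genes. The fibroblast median was -0.19 without UT day 18 replicate 2. Their summed levels were 296 to 381 CPM on day 18 and 254 to 356 CPM on day 20 for monocytes and macrophages, 882 to 886 CPM and 836 to 880 CPM for mast cells and basophils, 317 to 384 CPM and 288 to 351 CPM for MHC class II, 90.0 to 94.0 CPM and 102 to 113 CPM for lymphoid genes, and 44.6 to 77.7 CPM and 31.6 to 37.1 CPM for fibroblasts. The receptor gene FCER1A and the chymase gene CMA1 of the mast cell list had 0 counts on both days, as did MARCO and MSR1 of the macrophage list. Most members passed the filter on low counts, 14 of 18 mast cell and basophil genes and 28 of 31 monocyte and macrophage genes. Single members at 0 do not show that a cell type was absent. The part of these cells in the results was not tested.

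NF-kB genes were lower on day 20 in part. Of 21 subunits and targets tested, 6 fell and none rose (2.99% of all genes were called lower). The 6 were NFKBIZ, ICAM1, NFKB2, RELB, NFKBIA and BIRC3. With limma-voom 4 of the 21 were called lower, and NFKB2 and RELB lost the call. Both day 20 libraries lay below both of day 18 in 12 of the 21 (19.0% of all genes did). The median log2 change was -0.19, and -0.30 without UT day 20 replicate 1. The members that fell include feedback inhibitors of the family (NFKBIZ and NFKBIA) and both subunits of its slower arm (NFKB2 and RELB), while NFKB1, RELA and REL were not called.

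NFKBIZ, an atypical inhibitor that also helps NF-kB turn on secondary genes (chr3:101827991-101861022, plus strand), had the largest change of the list. It was measured at 12.1 and 17.3 CPM on day 18 and at 3.86 and 5.56 CPM on day 20. All day 20 values were far below those of day 18. The log2 change was -1.64 ± 0.23 (SE; edgeR adjusted p = 0.00079), kept without any 1 of the 4 libraries. NFKBIA, the inhibitor that holds NF-kB in the cytoplasm (chr14:35401511-35404749, minus strand), went from 161 and 159 CPM to 116 and 102 CPM. Replicates were close and the days apart, with a log2 change of -0.55 ± 0.12 (edgeR adjusted p = 0.016) whose call was lost without UT day 18 replicate 1 (-0.55) and UT day 20 replicate 2 (-0.47).

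An adhesion gene and the slower subunits also fell. ICAM1, the ligand that binds leukocyte integrins, stood at 26.4 and 24.7 CPM and then at 15.8 and 11.8 CPM, with no overlap (log2 change -0.89 ± 0.17, edgeR adjusted p = 0.0072; lost without UT day 20 replicate 2, -0.69). RELB went from 35.2 and 30.9 CPM to 18.4 and 21.6 CPM (log2 change -0.72 ± 0.17, edgeR adjusted p = 0.026; lost without UT day 18 replicate 1, -0.63, and UT day 20 replicate 1, -0.61). NFKB2, its partner, had a log2 change of -0.73 ± 0.20 (edgeR adjusted p = 0.041) and lost the call without any 1 of the 4 libraries (-0.87 to -0.60) and with DESeq2 size factors (-0.69). Of the list, 3, 4, 3 and 2 members were called without UT day 18 replicate 1, UT day 18 replicate 2, UT day 20 replicate 1 and UT day 20 replicate 2.

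Of 26 cytokines and chemokines tested, 2 fell, both of which draw neutrophils, and 1 rose, beside 2.99% of all genes lower and 1.61% higher. CXCL8, interleukin 8 (chr4:73740506-73743716, plus strand), was measured at 37.8 and 37.9 CPM on day 18 and at 14.3 and 13.3 CPM on day 20. Replicates of each day were nearly equal and the days far apart. Its log2 change was -1.45 ± 0.23 (edgeR adjusted p = 0.0020), a level 2.73-fold lower, and the call was kept without any 1 of the 4 libraries. CXCL2, a related ligand, went from 4.67 and 3.11 CPM to 1.48 and 1.54 CPM, without overlap. Its log2 change was -1.34 ± 0.28 (edgeR adjusted p = 0.013), with the call lost without UT day 18 replicate 1 (-1.05) and UT day 20 replicate 2 (-1.36). CCL24, a chemokine for eosinophils, was the member that rose, from 56.9 and 32.0 CPM to 111 and 66.5 CPM. Replicates were far apart on both days, and the log2 change of 0.999 ± 0.26 (edgeR adjusted p = 0.036) lost its call without UT day 18 replicate 2 (0.64), UT day 20 replicate 1 (0.58) and with library sizes alone (0.38).

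Promoters of 3 of these genes are shown with any match to a common form of the NF-kB site in capitals (GGG, then any 3 bases, then TTCC; both strands were searched, and the form does not overlap the GATA letters above). NFKBIZ and NFKBIA were taken as the inhibitor with the largest change and the classical one, and CXCL8 as the chemokine that fell. The sequences are RefSeq's on GRCh38.p14 and hold the 250 bases before the start, 5′ to 3′ along the gene's strand: chr3:101827740-101827989 (plus) with a match that begins 223 bases before the start of NFKBIZ, chr14:35404750-35404999 (minus) with a match 81 bases before that of NFKBIA, and chr4:73740319-73740568 (plus) with no match for CXCL8.
NFKBIZ: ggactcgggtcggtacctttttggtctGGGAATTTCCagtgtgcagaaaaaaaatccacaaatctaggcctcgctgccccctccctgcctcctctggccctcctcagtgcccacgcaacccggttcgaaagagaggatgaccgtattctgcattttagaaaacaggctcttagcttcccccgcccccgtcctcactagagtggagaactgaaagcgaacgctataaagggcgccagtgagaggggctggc
NFKBIA: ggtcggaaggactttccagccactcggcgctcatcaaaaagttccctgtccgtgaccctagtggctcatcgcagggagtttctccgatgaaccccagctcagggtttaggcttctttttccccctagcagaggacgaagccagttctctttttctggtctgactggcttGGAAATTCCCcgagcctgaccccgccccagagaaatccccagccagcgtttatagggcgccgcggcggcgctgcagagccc
CXCL8: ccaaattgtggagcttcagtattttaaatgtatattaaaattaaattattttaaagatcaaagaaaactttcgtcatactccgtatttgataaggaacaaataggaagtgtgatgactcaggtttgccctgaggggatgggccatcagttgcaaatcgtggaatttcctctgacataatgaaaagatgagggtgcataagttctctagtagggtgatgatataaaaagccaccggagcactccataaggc
The letters stood in 7 of the 19 NF-kB genes with a promoter entry and in 3 of the 5 that were called, beside 5.61% of all 27305 promoters. The list was written from known targets, so this is a description of its members and not of the change. RefSeq's start of CXCL8 lies inside the gene as placed above from GENCODE, so the end of its stretch overlaps that gene model. That stretch also holds tggaatttcc, which differs from the searched form only in its leading base. The lack of a match therefore says nothing about NF-kB at CXCL8.

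Immediate early genes and feedback genes of growth factor signalling were lower in part. Of 26 tested, 6 fell and none rose (2.99% of all genes were called lower). With limma-voom 2 of the 26 were called lower, and FOSL1, DUSP2, DUSP5 and JUND lost the call. The median log2 change was -0.45 (-0.27 without UT day 18 replicate 1), and 13 had both day 20 libraries below both of day 18 (19.0% of all genes did). NR4A1, an orphan nuclear receptor induced within minutes of a signal (chr12:52022832-52059507, plus strand), was measured at 7.39 and 7.19 CPM on day 18 and at 1.38 and 0.770 CPM on day 20. The gap between days was many times that between replicates. On the log2 scale the change was -2.77 ± 0.40 (SE; edgeR adjusted p = 0.0011), a level 6.83-fold lower. FOSL1, a FOS-related subunit of AP-1, stood at 4.35 and 2.30 CPM and then at 0.396 and 0.428 CPM, with 101 counts on day 18 and 9 on day 20 (log2 change -2.98 ± 0.44, edgeR adjusted p = 0.0012). SPRY4, an inhibitor of receptor tyrosine kinase signalling, had 46 counts on day 18 and 0 on day 20, and was at least 5.06-fold lower at a floor of 3 counts a library (edgeR adjusted p = 0.0012).

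NR4A1, FOSL1 and SPRY4 kept the call without any 1 of the 4 libraries, and DUSP2, DUSP5 and JUND did not. DUSP2, a phosphatase that turns off ERK in the nucleus, went from 25.6 and 20.5 CPM to 12.6 and 8.47 CPM without overlap (log2 change -1.13 ± 0.26, edgeR adjusted p = 0.018; lost without UT day 18 replicate 1, -0.97, and UT day 20 replicate 2, -0.87). DUSP5, which does the same, had a log2 change of -0.60 ± 0.15 (edgeR adjusted p = 0.032; lost without UT day 18 replicate 2, -0.31, UT day 20 replicate 1, -0.57, and UT day 20 replicate 2, -0.65). JUND, a JUN-related subunit of AP-1, had a log2 change of -0.48 ± 0.13 (edgeR adjusted p = 0.040) and lost the call without any 1 of the 4 libraries (-0.54 to -0.43) and with DESeq2 size factors (-0.44). FOS and JUN themselves were not called, at 16.9 and 17.0 CPM on day 18 and 20.3 and 18.2 CPM on day 20 for FOS.

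Genes of ribosome assembly fell in part. Of 39 tested, 8 fell and none rose (2.99% of all genes were called lower). The median log2 change was -0.30 (-0.15 without UT day 18 replicate 2), and 19 had both day 20 libraries below both of day 18 (19.0% of all genes did). NOP2, which methylates ribosomal RNA in the nucleolus (chr12:6556863-6568691, minus strand), was measured at 52.6 and 57.9 CPM on day 18 and at 27.9 and 31.9 CPM on day 20. Replicates were close and the days apart. The change on the log2 scale was -0.88 ± 0.12 (edgeR adjusted p = 0.00078), kept without any 1 of the 4 libraries. NPM1, the abundant nucleolar chaperone, was at 954 and 1152 CPM on day 18 and at 708 and 867 CPM on day 20 and was not called (log2 change -0.42 ± 0.16, edgeR adjusted p = 0.13).

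The other calls of that list were smaller. PPAN, which helps to build the large subunit and shares exons with a read-through transcript, went from 65.1 and 57.0 CPM to 42.0 and 29.2 CPM (log2 change -0.78 ± 0.15, edgeR adjusted p = 0.0087; lost without UT day 20 replicate 2, -0.54). RRP9, a protein of the small nucleolar particle that guides early cuts, had a log2 change of -0.73 ± 0.16 (edgeR adjusted p = 0.014; lost without UT day 18 replicate 1, -0.59), and RRP12, which helps to export the subunits, one of -0.69 ± 0.15 (edgeR adjusted p = 0.013; lost without UT day 18 replicate 1, -0.56). NOP16 had a log2 change of -0.71 ± 0.15 (edgeR adjusted p = 0.011; lost without UT day 20 replicate 2, -0.51), and the last 3 were MYBBP1A, NOB1 and NOLC1. Without UT day 18 replicate 1, UT day 18 replicate 2, UT day 20 replicate 1 and UT day 20 replicate 2, 6, 5, 7 and 4 of the 39 were called, and with limma-voom 2. Of the 74 cytosolic ribosomal protein genes 1 fell (2.99% of all genes did), and the median log2 change was -0.16. Both day 20 libraries lay below both of day 18 in 46 of them (19.0% of all genes).

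Of 24 glycolysis genes 2 fell and of 18 hypoxia-induced genes 1 fell, beside 2.99% of all genes, and none rose. The medians were -0.15 and 0.09, and 10 and 2 members had both day 20 libraries below both of day 18 (19.0% of all genes did). With DESeq2 6 glycolysis genes were called lower, as were 837 of all 36507 genes. With limma-voom 0 glycolysis genes and 1 hypoxia-induced gene were called lower, as were 70 of all 20115 genes. ALDOC and ENO2, described next, thus lost the call with limma-voom. Leaving out 1 library gave medians of -0.27 to -0.08 for glycolysis and of 0.00 to 0.24 for hypoxia. ALDOC, a brain-type aldolase that low oxygen induces, went from 27.5 and 28.4 CPM to 8.01 and 14.8 CPM, with both day 20 libraries low (log2 change -1.28 ± 0.23, edgeR adjusted p = 0.0041). ENO2, an enolase, went from 17.0 and 16.1 CPM to 8.61 and 7.87 CPM (log2 change -1.01 ± 0.19, edgeR adjusted p = 0.0075), and VEGFA, the growth factor for endothelial cells, from 82.3 and 85.7 CPM to 55.2 and 58.7 CPM (log2 change -0.56 ± 0.11, edgeR adjusted p = 0.0099). Replicates of these genes were closer than the days, and all 3 kept the call without any 1 of the 4 libraries.

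Of the 31 mitosis genes none was called lower and 11 had both day 20 libraries above both of day 18 (15.6% of all genes did). TOP2A, the topoisomerase of dividing cells, was at 661 and 833 CPM on day 18 and at 1010.05 and 1319.7 CPM on day 20, without overlap (log2 change 0.64 ± 0.18, edgeR adjusted p = 0.052), and was called without UT day 18 replicate 2 (0.82), without UT day 20 replicate 1 (0.82), with DESeq2, with its size factors, without a filter, with the filter at 1 CPM and with a replicate block (0.62 to 0.68). MKI67, the classical proliferation marker, was at 172 and 195 CPM and then at 215 and 279 CPM (log2 change 0.43 ± 0.17, edgeR adjusted p = 0.16). With library sizes alone both had small negative changes, of -0.03 and -0.24, against the general shift of -0.64. That setting gave 0.08 for KIF20A, described next, which was then not called. KIF20A, a motor of the last step of division, was the mitosis gene that rose, from 7.39 and 7.14 CPM to 12.5 and 11.6 CPM (log2 change 0.73 ± 0.16, edgeR adjusted p = 0.017), and it lost the call without UT day 18 replicate 1 (0.75), UT day 18 replicate 2 (0.70) and UT day 20 replicate 1 (0.67).

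Outside the lists, the genes with the largest rise were mostly scarce. The 14 named by the rule had log2 changes of 1.75 to 3.44. CCR6, a chemokine receptor of lymphocytes and dendritic cells, went from 2.41 and 2.96 CPM to 10.2 and 8.30 CPM. The days were far apart, with a log2 change of 1.77 ± 0.29 (edgeR adjusted p = 0.0025). PRR5L, a partner of the kinase complex mTORC2, went from 1.63 and 2.91 CPM to 8.80 and 7.70 CPM (log2 change 1.83 ± 0.34, edgeR adjusted p = 0.0066), and ZNF681, a zinc finger gene, from 11 counts on day 18 to 60 on day 20 (log2 change 3.02 ± 0.45, edgeR adjusted p = 0.0012). SIGLEC7, an inhibitory receptor of myeloid and natural killer cells, had a log2 change of 1.77 ± 0.36 (edgeR adjusted p = 0.011; lost without UT day 18 replicate 2, 1.35).

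Members of the lists that rose are given next. SYNE1, a giant protein that ties the nucleus to the cytoskeleton, was measured at 23.8 and 19.6 CPM on day 18 and at 57.7 and 42.0 CPM on day 20, with no overlap (log2 change 1.1999 ± 0.21, edgeR adjusted p = 0.0042). VLDLR, a lipoprotein receptor, went from 6.69 and 7.65 CPM to 16.4 CPM in both libraries (log2 change 1.19 ± 0.21, edgeR adjusted p = 0.0045). IL6R, the interleukin 6 receptor, had a log2 change of 0.67 ± 0.15 (edgeR adjusted p = 0.017; lost without UT day 18 replicate 1, 0.55, and UT day 20 replicate 2, 0.56), and RXRA, the retinoid X receptor, one of 0.53 ± 0.12 (edgeR adjusted p = 0.018; lost without UT day 18 replicate 1, 0.55, UT day 18 replicate 2, 0.51, and UT day 20 replicate 1, 0.43). CCR6, PRR5L, ZNF681, SYNE1 and VLDLR kept the call without any 1 of the 4 libraries. With library sizes alone, CCR6, PRR5L, ZNF681 and SIGLEC7 kept it, SYNE1 (0.57), VLDLR (0.54) and IL6R (0.01) lost it, and RXRA turned to -0.11.

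Of the 14 lowest genes named by the rule, 4 that were at or near 0 counts on day 20 are given here. IGSF10, an immunoglobulin superfamily protein, had 44 counts on day 18 and 0 on day 20 and was at least 5.02-fold lower at a floor of 3 counts a library. PDE2A, a phosphodiesterase, had 61 counts and then 1, a ratio of 41.0 with a 95% counting interval of 7.08 to 1645. TRPC1, a cation channel, had 43 counts and then 1, a ratio of 28.9 with an interval of 4.91 to 1167. CHRNA5, a nicotinic receptor subunit, had 36 counts and then 1, a ratio of 24.2 with an interval of 4.07 to 981. HAGHL, a hydrolase-like gene named for its difference between the arms, went from 4.98 and 4.03 CPM to 0.692 and 0.684 CPM (log2 change -2.70 ± 0.33, edgeR adjusted p = 0.00034). Libraries of the 2 days did not overlap for any of the 5, and each kept its call without any 1 of the 4 libraries; floors and intervals cover counting error only. Among all 324 genes called higher, 105 (32.4%) had under 100 counts on the day they were higher, as had 171 (28.5%) of the 601 called lower.

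The same 2 days in the DOX cells, which share no library with the UT cells, gave 3148 calls (15.7%), 1398 (6.95%) higher and 1750 (8.70%) lower. Of the 324 genes that rose in UT, 87 also rose in DOX (26.9%; 6.22% of the 1398), and of the 601 that fell in UT, 231 also fell in DOX (38.4%; 13.2% of the 1750), while 17 and 8 moved the opposite way. Across the 12549 genes whose log2 CPM averaged 1 or more, Pearson's r between the 2 sets of log2 changes was 0.335 and Spearman's rho 0.323; genes are not independent replicates. The difference between the UT and the DOX change was itself tested and was called in 658 genes (3.27%), 373 (1.85%) with the UT change above the DOX change and 285 (1.42%) below.

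Platelet, red cell and endothelial genes fell in part in both arms. In DOX 18 of the 20 platelet genes fell with a median log2 change of -1.36, and 17 of the 25 red cell genes with a median of -1.14. Of all genes, 8.70% fell in DOX. PPBP had a log2 change of -1.79 ± 0.21 in DOX, which differed from the UT change by 0.24 ± 0.29 (UT minus DOX; edgeR adjusted p = 0.72), and GP9 had one of -1.70 ± 0.17, a difference of -0.17 ± 0.31 (edgeR adjusted p = 0.83). HBE1 and EGFL7 had log2 changes of -1.90 and -0.72 in DOX, with differences of 0.24 ± 0.35 and -0.14 ± 0.19 (edgeR adjusted p = 0.78 and 0.76). A p that misses the threshold does not show that the arms acted alike. Differences were called in 2 of the platelet genes and 3 of the red cell genes, each with the UT change above the DOX change (1.85% of all genes) and none of them among the genes named above. Among the endothelial genes 1 difference was called, that of PECAM1, with a log2 change of -0.86 ± 0.14 in DOX and a difference of 1.18 ± 0.20 (edgeR adjusted p = 0.0058).

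For the chemokines CXCL8 and CXCL2 and for ICAM1 the difference between the arms passed the test. CXCL8 had a mean of 42.0 ± 2.28 CPM on DOX day 18 and 46.6 ± 10.95 CPM on DOX day 20 (SD, n = 2 each). Its log2 change in DOX was 0.15 ± 0.21, and the difference of -1.60 ± 0.31 was called (edgeR adjusted p = 0.012). CXCL2 had 0.15 ± 0.20 in DOX and a difference of -1.49 ± 0.34 (edgeR adjusted p = 0.025), and ICAM1 0.17 ± 0.16 and a difference of -1.06 ± 0.24 (edgeR adjusted p = 0.021). BIRC3, an inhibitor of cell death, had a log2 change of -0.53 in UT, lost as a call without UT day 18 replicate 2 (-0.41), UT day 20 replicate 1 (-0.53), UT day 20 replicate 2 (-0.53) and with DESeq2 size factors (-0.49); it rose by 0.48 in DOX, and the difference was -1.01 ± 0.20 (edgeR adjusted p = 0.014). The inhibitor NFKBIZ fell in both arms, with -0.92 ± 0.22 in DOX and a difference of -0.72 ± 0.31 that was not called (edgeR adjusted p = 0.21), and the differences of NFKBIA (-0.48 ± 0.17) and RELB (-0.78 ± 0.25) were not called either (edgeR adjusted p = 0.12 and 0.082).

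Of 26 immediate early genes the difference was called in 4, each with UT below DOX (1.42% of all genes). NR4A1 had a log2 change of 0.16 ± 0.33 in DOX and a difference of -2.93 ± 0.53 (edgeR adjusted p = 0.0077), and DUSP2 one of 0.64 ± 0.24 and a difference of -1.77 ± 0.35 (edgeR adjusted p = 0.013). FOSL1 and JUND fell in both arms (-1.16 ± 0.31 and -0.45 ± 0.13 in DOX), with differences that were not called (edgeR adjusted p = 0.075 and 1.0). NOP2 had a log2 change of 0.11 ± 0.11 in DOX and a difference of -0.997 ± 0.17 (edgeR adjusted p = 0.0049), and PPAN, RRP9 and RRP12 had differences of -1.03, -0.98 and -1.06 (edgeR adjusted p = 0.016, 0.021 and 0.011). Of the 39 ribosome assembly genes, 4 rose and 1 fell in DOX, beside 6.95% and 8.70% of all genes. In this list 5 differences were called, all with UT below DOX (1.42% of all genes). TFRC, with 0.34 ± 0.12 in DOX, had a difference of -0.95 ± 0.17 (edgeR adjusted p = 0.0067).

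Glycolysis and hypoxia genes fell more often in DOX. In DOX 13 of 24 glycolysis genes and 11 of 18 hypoxia-induced genes fell (8.70% of all genes did). The differences of 7 and 5 were called, each with UT above DOX (1.85% of all genes). ALDOC had a mean of 77.5 ± 21.0 CPM on DOX day 18 and 10.3 ± 1.74 CPM on DOX day 20 (SD, n = 2 each). Its log2 change in DOX was -2.91 ± 0.22, and the difference was 1.63 ± 0.31 (edgeR adjusted p = 0.0099). VEGFA fell in both arms, with -0.64 ± 0.11 in DOX and a difference of 0.08 ± 0.16 (edgeR adjusted p = 0.85). When only the 8 libraries of these groups were fitted, so that the spread came from them alone, edgeR called no difference between the arms (1743 genes had an unadjusted p under 0.05). In a separate fit of the 4 UT libraries alone it called no change from day 18 to day 20 (1209 genes had an unadjusted p under 0.05).

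**Figure D3:**
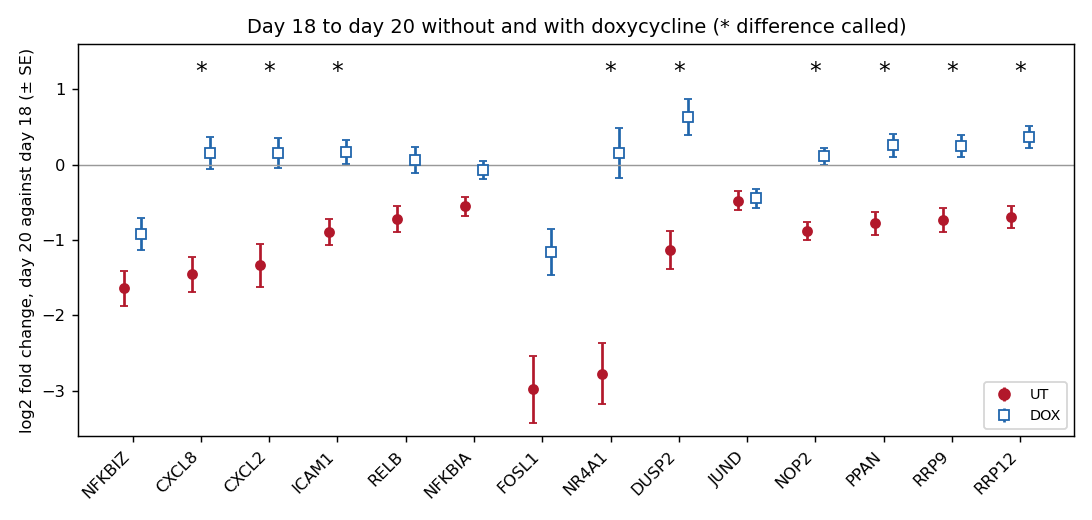
Log2 fold change from day 18 to day 20 (y axis, with bars of 1 SE) of 14 genes in UT cells (filled circles) and DOX cells (open squares), each from 2 libraries a day; a star marks genes whose difference between the arms was called. CXCL8 is at -1.45 in UT and 0.15 in DOX, and NFKBIZ, FOSL1 and JUND lie below 0 in both.

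Earlier days set these levels in context. From UT day 10 to UT day 16, 11266 genes (56.0%) were called, 26.7% higher and 29.3% lower, and from UT day 16 to UT day 18, 2135 (10.6%), 3.93% higher and 6.69% lower. Day 18 libraries are shared between this interval and the one before it, so values from day 16 to day 18 are given beside it and not as a second line of evidence. PPBP had UT means of 157 ± 5.23 CPM on day 10, 1153 ± 347 CPM on day 14 and 226 ± 6.22 CPM on day 16 (SD, n = 2 each) before 61.0 ± 10.3 CPM on day 18. CXCL8 stood at 3.40 ± 0.211 CPM on day 10, 44.1 ± 3.21 CPM on day 14 and 37.8 ± 0.0503 CPM on day 18. NR4A1 stood at 0.711 ± 0.049997 CPM on day 10 and 7.29 ± 0.136 CPM on day 18, so that day 20 (1.08 ± 0.435 CPM) lay near day 12 (1.07 ± 0.143 CPM). NOP2 had its highest mean of the course on day 18, with 55.2 ± 3.75 CPM against 36.0 to 45.8 CPM on days 10 to 16 and 29.9 ± 2.83 CPM on day 20. CYBB and CXCR2 had higher means on each later day, from 35.8 ± 3.80 and 0.446 ± 0.0027 CPM on day 10 to 637 ± 75.7 and 24.6 ± 0.783 CPM on day 20.

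**Figure D4:**
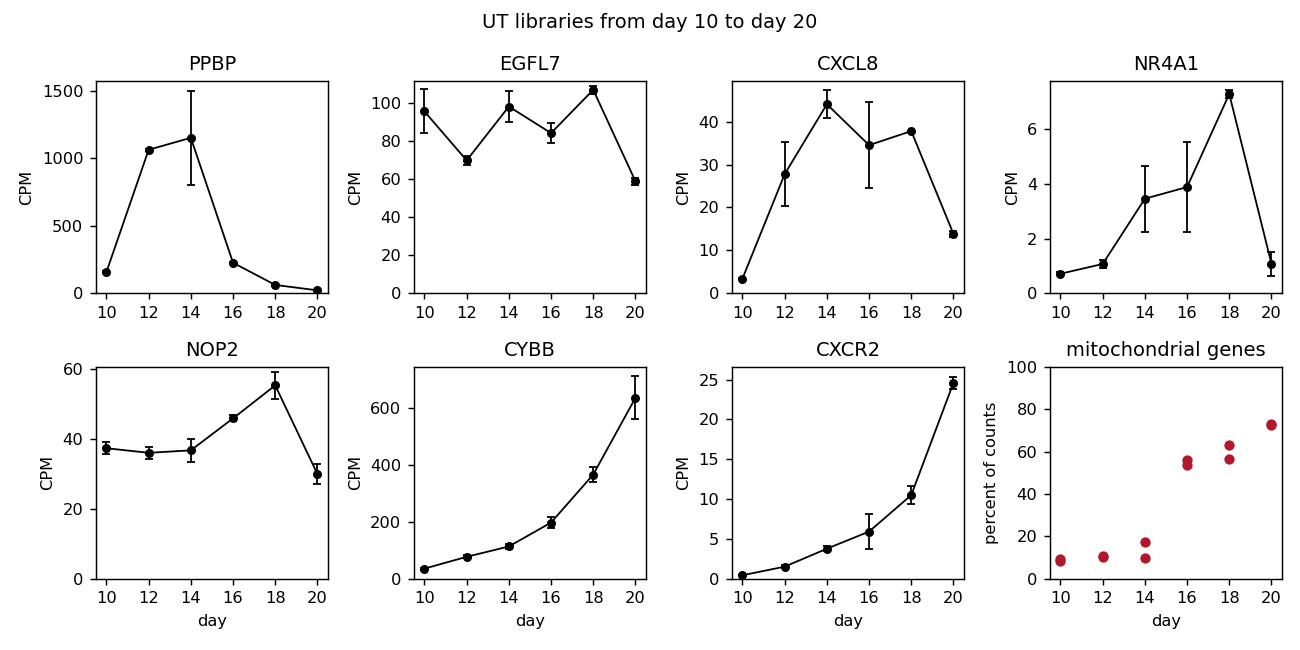
Mean level in UT libraries by culture day (y axis, CPM, with bars of 1 SD, n = 2) of 7 genes, and the percent of counts from mitochondrial genes in each library. PPBP is highest on day 14, CXCL8, NR4A1, NOP2 and EGFL7 drop between day 18 and day 20, CYBB and CXCR2 go up on each day, and the mitochondrial share lies between 56.6% and 72.9% on days 18 and 20.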

How the data were processed

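PolyA RNA was sequenced in 22 libraries. The authors deposited expected counts per gene (estimated reads, not normalised), for which the submitters' processing notes name hg38, STAR, Salmon and Trim Galore 0.6.5; other versions, the annotation, strand setting and filters are not given in the sources used here. Of the values, 88.3% were whole, and all were rounded. Genes passing edgeR's filterByExpr (version 4.0.16; minimum count 10) were scaled by TMM and tested by the quasi-likelihood test with 1 coefficient for each of 11 groups (11 residual degrees of freedom) and Benjamini-Hochberg adjustment over 20115 genes. The spread is thus shared over all groups. Gene positions came from GENCODE 29 on GRCh38 (58020 of 60240 identifiers matched) and promoters from RefSeq. In data simulated for UT day 20 against UT day 18 (19722 genes), 71% of 2-fold and 97% of 4-fold changes among genes of at least 5 CPM were recovered, and 12 of 19522 unchanged genes were called. The simulated spread was the one estimated over all 11 groups. Replicates of UT day 18 and UT day 20 differed by a median of 0.375 and 0.388 in log2 CPM, against 0.156 on UT day 10. The simulation therefore does not give the error rate in these 4 libraries. R 4.3.3 was used, with limma 3.58.1 and DESeq2 1.42.0 for alternatives.

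The interval, the 47 gene lists and the rule for named genes were chosen with earlier results of these data known. The rule took the 14 highest and 14 lowest called genes whose log2 CPM averaged 1 or more, with no overlap between days, up to 5 called members and the 2 most abundant members of each list, MYC, and the 5 highest and 5 lowest differences between the arms; the text gives part of these. CD34, FCGR3B, FOS, JUN, REL, RELA, NFKB1 and markers at or near 0 counts were named for their role after their values were seen. Some genes that met the rule are withheld and are not reported here.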

Additional observations from a re-analysis of the deposited data

Results flagged for a closer look

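The change from day 18 to day 20 differed between the UT and the DOX cells, by edgeR's test of the difference itself, in 21 of the genes described. Over all genes 658 differences were called, against 146 with limma-voom and 0 when only the 8 libraries of these groups were fitted. The 21 were not followed singly through these alternatives. Values are the UT log2 change minus the DOX log2 change. The UT change lay below the DOX change in the signalling genes NR4A1 (-2.93) and DUSP2 (-1.77), the chemokines CXCL8 (-1.60) and CXCL2 (-1.49), the adhesion gene ICAM1 (-1.06), the survival gene BIRC3 (-1.01), the ribosome assembly genes RRP12 (-1.06), PPAN (-1.03), NOP2 (-0.997) and RRP9 (-0.98), the transferrin receptor TFRC (-0.95) and the scarce gene HAGHL (-3.03). It also lay below in IGSF10 (-9.28), SPRY4 (-8.58), CHRNA5 (-5.64) and PDE2A (-4.04), whose UT day 20 libraries held 0 or 1 count in all, so that these fitted values depend on the prior count. The UT change lay above the DOX change in KIF20A (1.02), PECAM1 (1.18), ALDOC (1.63), PRR5L (2.29) and ZNF681 (3.18). Of the 21, KIF20A, PRR5L, ZNF681 and PECAM1 had positive UT changes, that of PECAM1 not called, and the other 17 fell in UT. Groups of 2 libraries were too small to look for single libraries that stand apart.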

How the results depend on the processing

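The number of genes called between UT day 18 and UT day 20 was 925, and 8685 with library sizes alone, 1496 without a filter, 151 with limma-voom (144 of them shared with the 925), 1623 with DESeq2 and 552 when a change of at least 2-fold was also required. It was 0 when the 4 libraries were fitted alone. Of all 324 genes called higher 33 (10.2%), and of all 601 called lower 148 (24.6%), kept the call in all 4 fits that left out a library. Leaving out 1 library gave 699 to 1145, sharing 444, 536, 484 and 398 of the 925. The share of calls that were higher was 35.0%, and 2.31% with library sizes alone, 53.6% with limma-voom, 48.4% with DESeq2, and 26.5% to 45.9% when 1 library was left out. For the DOX cells the number was 3148, and 8513 with library sizes alone, 1506 with those groups alone, 1249 at 2-fold and 1659 to 2871 with 1 library left out. For the difference between the arms it was 658, and 379 with library sizes alone, 1144 without a filter, 146 with limma-voom, 1570 with DESeq2, 0 with those groups alone and 240 to 1018 with 1 library left out. The calls between UT day 10 and UT day 16 (11266) stayed within 1.5 times under every alternative, at 9183 to 9852 with 1 library left out. The mitochondrial share differed by 9.86 to 16.1 points with 1 library left out. The cause of these moves was not tested. With library sizes alone, log2 changes turned to -0.32 in PECAM1, -0.47 in FOS, -0.33 in MPO, -0.11 in RXRA, -0.026 in TOP2A, -0.24 in MKI67 and -0.63 in CSF3R. CSF3R, which lay near 0, was also at -0.013 without a filter, -0.0043 with mitochondrial genes removed, and -0.12 to 0.11 with 1 library left out.

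Of 69 called genes named in the text, 34 kept the call in those 4 fits, 31 with limma-voom, 57 with library sizes alone, 64 with DESeq2 size factors and 69 with DESeq2. With library sizes alone the median log2 change of all genes was -0.64, so named genes that fell could keep their calls through that shift. The 11 calls lost and the 1 reversed in that setting were all of genes that rose. Of the named genes that rose, CCR6, PRR5L, ZNF681 and SIGLEC7 kept the call there. Whether replicate numbers pair the libraries is not known. Across all genes tested, deviations of same-numbered UT day 18 and UT day 20 libraries correlated at 0.0505, and 5 of 55 pairs of groups were over 0.1. Scarce genes weigh as much as abundant ones in this correlation, so a low value does not show that pairing was absent. With a replicate block the calls were 1277 in UT, 3711 in DOX and 1018 for the difference. Depth limits scarce genes most, since counts outside mitochondrial genes were lowest on day 20.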
